A study of Mus musculus with 12 samples.

Results

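Autophagy genes encode the proteins that wrap part of the cytoplasm in a double membrane, the autophagosome, and hand it to the lysosome. The 32 genes described here were chosen by name as core members of that pathway. The choice used no measured value as its rule, but it was made with earlier results of these data known. They were followed through 3 deposited tables of regions in which 5-hydroxymethylcytosine (5-hmC), an oxidised form of methylated cytosine, differed between groups of mouse dorsal root ganglia. A region was taken where a table gave it the name of a listed gene. Of the 32 genes, 23 held at least 1 region in at least 1 table, and 9 held none. The 9 without a region were Atg3, Atg4d, Atg16l2, Ulk1, Pik3c3, Map1lc3a, Gabarapl1, Sqstm1 and Optn. The other 23 held 131 regions, of which 15 lay in the table of PL against control, 72 in that of DCL against control and 44 in that of PL against DCL. Merging regions that overlapped left 104 separate stretches. Across all genes, 11212 names appeared in at least 1 table. That counts names in the tables, not protein-coding genes, so it gives no share to set beside the 23 of 32. Shares over all protein-coding genes are given below for each comparison.

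Ganglia were lumbar and were taken 24 h after injury. PL mice had a peripheral lesion, made in the sciatic nerve, after which sensory axons can grow back. DCL mice, which were other animals, had a lesion of the dorsal columns, where the central branches of the same neurons run, after which growth is poor. Control ganglia were the uninjured ones from the opposite side of PL mice, so these animals had also been operated on. Each library came from a pool of 3 animals. There were 3 enriched libraries in each group, and 3 input libraries, 1 in each group, that were not analysed here. Strain, sex and age are not given in the labels used here. The spread given below is that between libraries, with 1 pool in each. Differences between pools and between library preparations cannot be told apart in it.

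Autophagy starts when a kinase complex (Ulk1 or Ulk2 with Atg13 and Rb1cc1) is released from inhibition by mTOR. A lipid kinase complex built around Pik3c3 and Becn1 then marks the membrane with a phosphoinositide that Wipi proteins bind, Atg9a and the Atg2 proteins bring in lipid, and 2 ubiquitin-like conjugation systems attach proteins of the ATG8 family to the growing membrane. In neurons, autophagosomes form in the distal axon and are carried back to the cell body, and mice that lack Atg5 or Atg7 in neurons develop neurodegeneration. TFEB is a transcription factor that raises the expression of autophagy and lysosome genes. In genes, 5-hmC is made from methylated CpG by TET enzymes and is abundant in neurons, mostly in gene bodies and least at unmethylated CpG-rich promoters.

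Most regions lay inside genes, and 9 lay in promoters as the tables define them, in Atg9a, Atg2a, Atg2b, Atg14, Atg12, Rb1cc1 and Atg16l1. The bases just upstream of the start are shown for the 4 of these genes that are in the RefSeq promoter table (build GRCm38.p6) and had a promoter region against control. Capitals mark each CpG, the dinucleotide at which 5-hmC is found. The listed regions use the mm9 build and lay further from the start, so they are not within these letters. The Atg9a sequence is chr1:75192011-75192260 on the minus strand, that of Atg2a is chr19:6241418-6241667 on the plus strand, that of Atg2b is chr12:105685242-105685491 on the minus strand and that of Atg14 is chr14:47568435-47568684 on the minus strand.
Atg9a: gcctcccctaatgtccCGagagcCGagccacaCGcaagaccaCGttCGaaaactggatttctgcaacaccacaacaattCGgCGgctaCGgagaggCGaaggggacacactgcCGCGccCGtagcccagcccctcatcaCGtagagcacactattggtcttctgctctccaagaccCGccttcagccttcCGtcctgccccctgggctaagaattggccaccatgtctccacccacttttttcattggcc
Atg2a: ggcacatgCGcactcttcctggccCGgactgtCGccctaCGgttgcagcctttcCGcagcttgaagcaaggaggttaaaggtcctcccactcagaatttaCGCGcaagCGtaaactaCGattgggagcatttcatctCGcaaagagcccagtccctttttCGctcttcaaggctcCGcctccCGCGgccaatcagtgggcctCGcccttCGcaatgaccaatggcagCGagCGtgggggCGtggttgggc
Atg2b: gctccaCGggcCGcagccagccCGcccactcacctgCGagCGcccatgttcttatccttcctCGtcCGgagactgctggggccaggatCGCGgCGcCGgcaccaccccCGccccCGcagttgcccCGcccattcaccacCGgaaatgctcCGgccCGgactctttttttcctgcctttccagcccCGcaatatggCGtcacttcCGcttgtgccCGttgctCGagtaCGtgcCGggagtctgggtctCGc
Atg14: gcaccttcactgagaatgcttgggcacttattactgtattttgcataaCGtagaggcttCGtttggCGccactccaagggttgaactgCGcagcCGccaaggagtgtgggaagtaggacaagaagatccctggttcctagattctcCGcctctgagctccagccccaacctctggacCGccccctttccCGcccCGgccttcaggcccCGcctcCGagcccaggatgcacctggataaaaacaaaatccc
These 250 bases held 15 CpG in Atg9a, 19 in Atg2a, 25 in Atg2b and 11 in Atg14. The table had a window for 26 of the 32 genes and none for Atg12, Atg16l1, Becn1, Map1lc3a, Pik3c3 and Rb1cc1. The full windows, which run from 250 bases upstream to 50 bases downstream, held 4 to 55 CpG over the 29 windows of these genes, with a median of 20, against a median of 7 over all 32851 windows. The letters CACGTG, the core of the sites that TFEB and other E-box factors bind, were sought on both strands, which read alike. They stood in 4 of the 29 windows (13.8%), in Atg3, Atg5, Atg7 and Atg14, against 7.15% of all windows. CACGTG itself holds a CpG, and these shares were not compared among windows with as many CpG. In Atg14 they lay downstream of the start, outside the bases printed.

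Values are normalised read counts: reads in a region times a factor set for each library in each table, so levels were compared only within a table. Factors differed widely. A single read counted for 0.907, 1.5 and 1.77 in the PL libraries and 1.05, 0.668 and 0.576 in the controls of the first table. In the second table it counted for 3.14, 1.49 and 0.658 in the DCL libraries and 0.975, 0.620 and 0.534 in the controls. In PL against DCL it counted for 0.620, 1.03 and 1.23 in the PL libraries and 2.34, 1.11 and 0.488 in the DCL libraries. Libraries are named here by their place in the tables, which was the same in all 3 tables, because nothing ties that place to the replicate numbers of the labels. The first-listed DCL library, with the largest factor, was the highest DCL library in 51 of the 60 autophagy regions listed as higher after DCL, and in 25091 of all 29208 such regions. The tables hold only regions that had already been selected as differing, so no test was made on them. With 3 libraries against 3, the smallest two-sided exact permutation p would be 0.1. Ganglia hold neurons, glia and other cells, and a change in the mix of cells cannot be told apart from a change of 5-hmC per cell. The labelled tissue could not be checked against expression, since the tables hold 5-hmC alone.

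After the sciatic lesion, 5-hmC differed from control at 15 regions in 8 autophagy genes, 10 of them higher and 5 lower. Higher regions lay in Uvrag (4), Atg7 (2), Ambra1, Pik3r4, Atg9a and Tfeb. Lower regions lay in Atg10 (2), Atg5, Uvrag and Tfeb. The 8 genes are 25% of the list, against 19.5% of all 21900 protein-coding genes. A higher region was held by 6 genes (18.75%), against 12.1% of all genes, and a lower one by 4 (12.5%), against 11.4%. These shares of all genes are over genes of every length. Of the 15 regions, 66.7% were higher, against 50.4% of all regions in this table. The PL and control libraries did not overlap in any of the 15. Over the whole table they did not overlap in 95.6% of higher regions and in 6066 of 6067 lower ones (100%), so that separation comes with being listed.

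**Figure D1:**
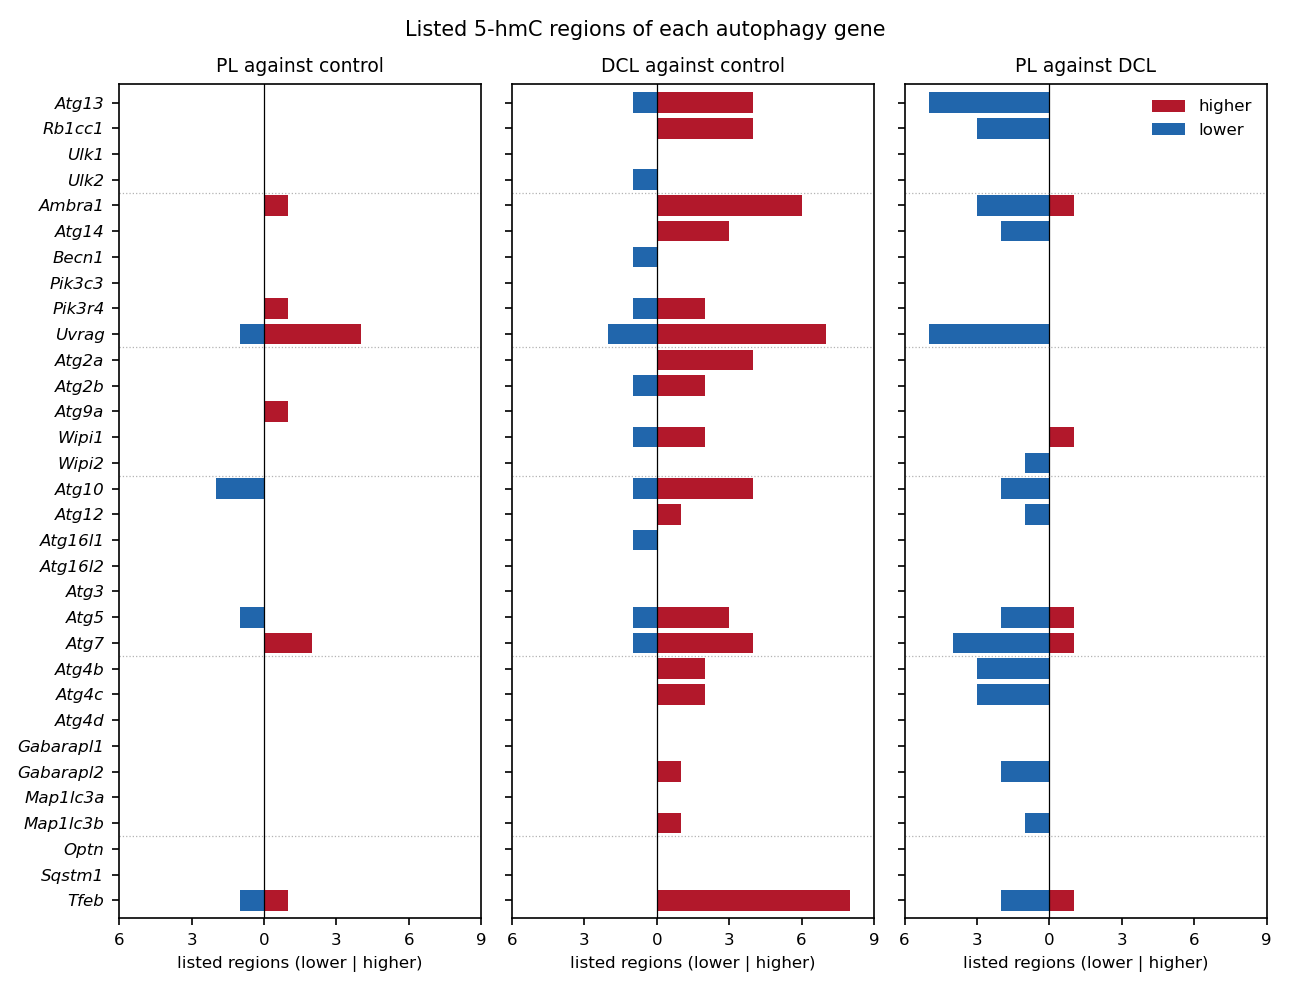
Number of listed 5-hmC regions in each of the 32 autophagy genes (rows, grouped by role with dotted lines) in the 3 comparisons; bars to the right count regions higher in the first-named group and bars to the left regions lower in it. PL against control holds 15 regions, DCL against control 72 and PL against DCL 44, with Tfeb, Uvrag and Ambra1 carrying the longest bars after DCL.

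No gene of the initiation kinase complex (Ulk1, Ulk2, Atg13, Rb1cc1) held a region in this comparison. The lipid kinase complex held 7 of the 15, 6 higher and 1 lower. Ambra1, which activates the complex through Beclin 1, was higher at chr2:91577141-91577380, 6.96 kb into the gene, with 44.4, 51.0 and 37.3 in the PL libraries and 26.3, 25.4 and 20.2 in the control libraries (44.2 ± 6.86 against 23.9 ± 3.31, SD, n = 3, log2 ratio 0.88). The lowest PL library, the third, lay above the highest control. Pik3r4, the regulatory subunit that holds the lipid kinase Pik3c3, was higher at chr9:105583461-105583700, late in the gene, with 45.3, 31.5 and 49.7 in the PL libraries and 15.8, 24.1 and 24.8 in the control libraries (log2 ratio 0.97). Its second PL library was nearest to the controls. Becn1, Atg14 and Pik3c3 held no region here.

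Uvrag, a Beclin 1 partner that steers the complex to endosomes and to autophagosome maturation, held 5 regions, more than any other member in this comparison. They followed one another along a gene of 254 kb. Nearest the start, at chr7:106284661-106285020, 4.81 kb in, normalised read counts were 36.3, 28.5 and 24.8 in the PL libraries and 9.47, 18.0 and 10.4 in the control libraries (29.9 ± 5.84 against 12.6 ± 4.70, SD, n = 3, log2 ratio 1.24). At chr7:106242741-106243020, 46.8 kb in, they were 19.9, 31.5 and 23.1 in the PL libraries and 15.8, 13.4 and 8.07 in the control libraries (log2 ratio 1.00), and this region had an adjusted p of 0.0612 in the authors' deposited table, the only autophagy region of the 15 above 0.05. In both, every PL library was above every control. The lower region, chr7:106220641-106220880, 68.9 kb in, had 14.5, 16.5 and 8.87 in the PL libraries and 32.6, 28.1 and 31.7 in the control libraries (log2 ratio -1.21). It lay between higher ones, with a gap of 21.9 kb on the side of the start and 14.6 kb on the other. Further in, chr7:106205881-106206080 had 63.5, 55.5 and 42.6 in the PL libraries and 30.5, 23.4 and 35.7 in the control libraries (log2 ratio 0.85). The last, chr7:106186301-106186520, had 31.7, 27.0 and 23.1 in the PL libraries and 13.7, 9.35 and 17.3 in the control libraries (log2 ratio 1.02). Thus 4 of the 5 regions of Uvrag had more 5-hmC after the sciatic lesion and 1 had less.

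Atg9a, the membrane protein whose vesicles seed the autophagosome, held the only promoter region of this comparison, at chr1:75187781-75188060, 0.664 kb past the start. It had 25.4, 27.0 and 23.1 in the PL libraries and 10.5, 10.0 and 13.8 in the control libraries (25.1 ± 1.97 against 11.5 ± 2.07, SD, n = 3, log2 ratio 1.13). The 3 PL libraries lay close together and above all controls. Atg9a held no region in the other comparisons. The lipid-transfer genes Atg2a and Atg2b and the Wipi genes held none here.

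In the conjugation machinery, Atg7 held only higher regions here, and Atg10 and Atg5 held only lower ones. Whether direction follows the order of the reactions was not tested. Atg7, the activating enzyme, was higher at chr6:114640101-114640300, with 11.8, 36.0 and 23.1 in the PL libraries and 4.21, 10.0 and 9.80 in the control libraries (23.6 ± 12.1 against 8.01 ± 3.29, SD, n = 3). Its log2 ratio of 1.56 was the highest among the 15 regions. The first PL library, at 11.8, stood just above the highest control, and the PL libraries spread over a wide range. A second Atg7 region, chr6:114732421-114732740, had 35.4, 21.0 and 28.4 in the PL libraries and 14.7, 16.0 and 12.7 in the control libraries (log2 ratio 0.96). Atg10, the conjugating enzyme that joins Atg12 to Atg5, was lower at chr13:91348361-91348580, 15.1 kb in, with 2.72, 6.00 and 3.55 in the PL libraries and 20.0, 20.0 and 13.3 in the control libraries (4.09 ± 1.71 against 17.8 ± 3.90, SD, n = 3, log2 ratio -2.12). At chr13:91234681-91234880, 129 kb in, it was lower again, with 11.8, 10.5 and 10.7 in the PL libraries and 25.2, 29.4 and 25.9 in the control libraries (log2 ratio -1.29). Both Atg10 regions were thus low in all PL libraries. Atg5, the acceptor of Atg12, was lower at chr10:44060441-44060660, with 6.35, 3.00 and 10.7 in the PL libraries and 17.9, 18.7 and 20.2 in the control libraries (6.67 ± 3.83 against 18.9 ± 1.16, SD, n = 3, log2 ratio -1.50). The second PL library held the least. No gene of the ATG8 family or of its proteases held a region.

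Tfeb carried a lower and a higher region with a gap of 2.76 kb between them. The lower, chr17:47887681-47887900, 12.9 kb past the start, had 5.44, 3.00 and 1.77 in the PL libraries and 16.8, 16.7 and 17.9 in the control libraries (3.40 ± 1.87 against 17.1 ± 0.641, SD, n = 3). Its log2 ratio of -2.33 was the lowest of the 15 and rested on 9 reads in the PL libraries against 72 in the controls. Its adjusted p of 0.00261 was the smallest of the 15 in the authors' deposited table. The higher, chr17:47890661-47890900, 15.9 kb past the start, had 35.4, 40.5 and 44.4 in the PL libraries and 21.0, 20.0 and 17.9 in the control libraries (40.1 ± 4.51 against 19.6 ± 1.62, SD, n = 3, log2 ratio 1.03). In both, the groups stood clear of each other, in opposite directions. The receptor genes Sqstm1 and Optn held no region.

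**Figure D2:**
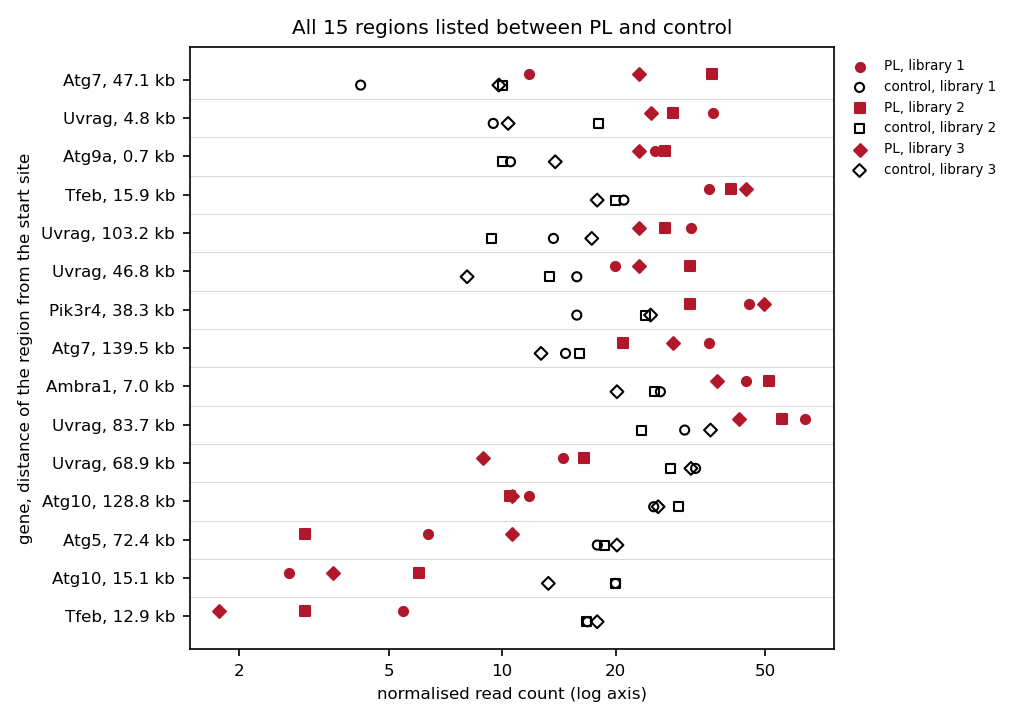
Normalised read count (log axis) in each of the 3 PL libraries (filled) and 3 control libraries (open) at the 15 regions listed between PL and control; each row is a region, named by its gene and its distance from the start site. The PL symbols lie right of all control symbols in the upper 10 rows and left of them in the lower 5, with Tfeb at 12.9 kb at the bottom.

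After the dorsal column lesion, 5-hmC differed from control at 72 regions in 21 of the 32 autophagy genes (65.6%), against 36.8% of all genes. Of these regions 60 were higher and 12 lower, so that 83.3% were higher, against 82.9% of all regions in this table. A higher region was held by 18 genes (56.2%), against 34.1% of all genes, and a lower one by 11 (34.4%), against 11.5%. Of these genes, 10 had only higher regions, 8 had both kinds, and Becn1, Ulk2 and Atg16l1 had only a lower one. All 12 lower regions had the groups apart, against 99.7% of all lower regions. Of the 60 higher regions, 29 (48.3%) had the groups apart, against 46.5%. Over the 60 higher regions the median normalised read counts were 62.7, 27.6 and 16.4 in the DCL libraries and 16.1, 16.4 and 14.2 in the controls, so the first-listed DCL library stood far above, the second stood above and the third was near the controls. When the first-listed one was left out, 29 of the 60 (48.3%) kept a 1.5-fold difference, against 51.4% of all higher regions, and the median log2 ratio went from 1.25 to 0.57. After each library was divided by its median over the table, 51 of the 72 regions stayed above 0 and 21 lay below, so that 70.8% were higher, against 68.4% of all regions. Those medians are over selected regions, most of them higher after DCL, so the division also takes out a gain that listed regions share. The 12 lower regions had log2 ratios from -3.15 to -1.07 with all DCL libraries and from -2.57 to -1.21 without the first-listed one.

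**Figure D3:**
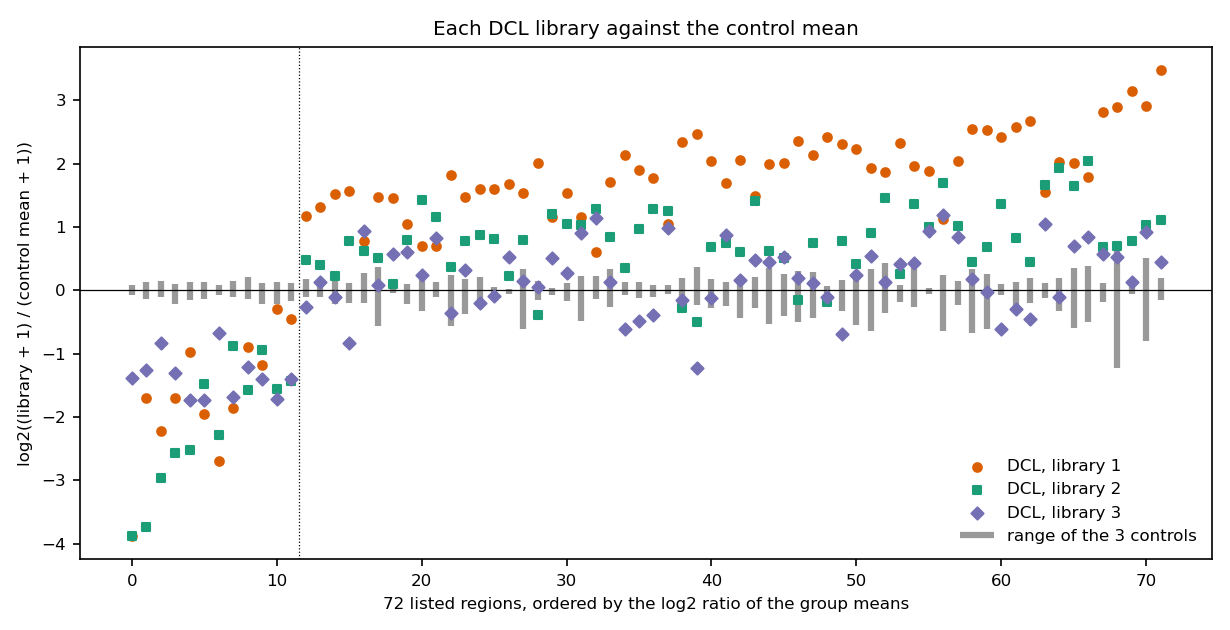
Log2 of each DCL library over the mean of the controls, with 1 added to both, at the 72 autophagy regions listed between DCL and control, ordered by the log2 ratio of the group means; grey bars show the range of the 3 controls, and the dotted line parts the 12 lower from the 60 higher regions. The 3 DCL libraries all lie below the control range left of the line, while right of it the first-listed library lies well above the others in most regions.

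In the initiation kinase complex, Atg13 and Rb1cc1 had more 5-hmC after the dorsal column lesion, Ulk2 had less, and Ulk1 held no region. Ulk2, a kinase that can stand in for Ulk1, was lower at chr11:61646781-61647000, 21.7 kb in, with 3.14, 1.49 and 9.87 in the DCL libraries and 17.5, 20.4 and 17.1 in the control libraries (4.83 ± 4.44 against 18.4 ± 1.82, SD, n = 3, log2 ratio -1.93). All DCL libraries were below all controls, the third least so. Atg13, the subunit that mTOR phosphorylates, held 4 higher regions, 3 of which overlapped a region of PL against DCL. At chr2:91542321-91542640 it had 37.6, 17.9 and 15.8 in the DCL libraries and 8.77, 9.30 and 6.95 in the control libraries (log2 ratio 1.51, and 1.02 without the first-listed DCL library), with the groups apart. At chr2:91540321-91540720 it had 179, 28.4 and 30.9 in the DCL libraries and 40.0, 32.9 and 31.0 in the control libraries (log2 ratio 1.20). There the second DCL library and the third lay below the controls, and without the first the log2 ratio was -0.22. At chr2:91532081-91532320 it had 43.9, 32.9 and 12.5 in the DCL libraries and 9.75, 15.5 and 8.55 in the control libraries (log2 ratio 1.40, and 1.01 without the first), the third overlapping the controls. The fourth higher region had a log2 ratio of 0.94, and 0.060 without the first, with the groups overlapping. A lower region, 289 bp past the listed end of the gene, had -1.07.

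Rb1cc1, the scaffold of the kinase complex, held 4 higher regions within 9.99 kb of its start and none elsewhere in a gene of 61.4 kb. The first is in the promoter as the tables define it, 2.48 kb past the start at chr1:6207041-6207400, with 147, 70.2 and 17.1 in the DCL libraries and 25.3, 26.0 and 28.9 in the control libraries (78.2 ± 65.5 against 26.7 ± 1.86, SD, n = 3, log2 ratio 1.55). The first and second DCL libraries were high, and the third was below all controls. At chr1:6211361-6211660 there were 87.8, 31.4 and 38.8 in the DCL libraries and 27.3, 27.3 and 25.6 in the control libraries (log2 ratio 0.98), and all DCL libraries were above all controls. At chr1:6214561-6214900 there were 53.3, 31.4 and 19.7 in the DCL libraries and 22.4, 19.2 and 11.2 in the control libraries (log2 ratio 0.98), with the third DCL library among the controls and an adjusted p of 0.125 in the authors' deposited table. These log2 ratios, leaving the first-listed DCL library out, were 0.71, 0.39 and 0.54. The fourth region, chr1:6212861-6213060, had a log2 ratio of 1.33, and -0.15 without that library.

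The lipid kinase complex held 22 regions, 18 higher and 4 lower. Becn1, the scaffold of the complex, was lower at chr11:101154101-101154320, 9.37 kb in, with 0, 0 and 4.61 in the DCL libraries and 14.6, 13.0 and 13.4 in the control libraries (1.54 ± 2.66 against 13.7 ± 0.847, SD, n = 3). The log2 ratio of -3.15 was the lowest of the 72 regions. It rested on 7 reads, all in the third DCL library, against 61 in the controls, and the adjusted p was 0.000418 in the authors' deposited table. Pik3r4 was lower at chr9:105574021-105574260, with 6.27, 2.99 and 8.55 in the DCL libraries and 24.4, 19.2 and 24.0 in the control libraries (log2 ratio -1.92). Its groups stood apart, and 2 higher regions lay nearer the start, with log2 ratios of 1.28 and 1.09, which were 0.57 and 1.27 without the first-listed DCL library. Atg14, which directs the complex to the site of autophagosome formation, was higher in its promoter, 1.85 kb past the start at chr14:48186141-48186380, with 65.9, 34.3 and 11.8 in the DCL libraries and 15.6, 16.7 and 18.7 in the control libraries (log2 ratio 1.14). It was higher again at chr14:48180341-48180640, with 113, 25.4 and 21.1 in the DCL libraries and 20.5, 23.6 and 11.2 in the control libraries (log2 ratio 1.53). In the promoter region the third DCL library was below all controls, and in the other it lay among them. Without the first-listed DCL library the log2 ratios were 0.44 and 0.33.

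Ambra1 held 6 regions, all higher. At chr2:91577121-91577480, 7.00 kb in, there were 113, 106 and 25.0 in the DCL libraries and 31.2, 28.5 and 21.4 in the control libraries (81.3 ± 48.9 against 27.0 ± 5.08, SD, n = 3, log2 ratio 1.59). Here the first and second DCL libraries were both high, and the third fell inside the controls. This is the stretch of Ambra1 that was also higher after the sciatic lesion, and it was listed in all 3 tables. The comparisons share the control libraries. At chr2:91581301-91581700, after a gap of 3.82 kb, there were 91.0, 59.7 and 30.9 in the DCL libraries and 29.2, 18.6 and 19.8 in the control libraries (log2 ratio 1.43), with all DCL libraries above all controls. At chr2:91706001-91706340, 136 kb in, there were 151, 28.4 and 17.8 in the DCL libraries and 15.6, 17.4 and 15.5 in the control libraries (log2 ratio 2.02), again apart, though the third DCL library only just. Leaving out the first DCL library, the 3 log2 ratios were 1.28, 1.01 and 0.52. The other 3 regions of Ambra1 had log2 ratios of 1.27, 1.32 and 1.35, which were 1.09, 0.49 and 0.36 without that library. The groups were apart in the first of these and overlapped in the others. Ambra1 and Atg13 are neighbours on chromosome 2.

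Uvrag held 9 regions, the most of any member in this comparison. From the start, 7 higher regions were followed by 2 lower ones at the far end. At chr7:106244601-106244800, 45.0 kb in, there were 15.7, 23.9 and 16.4 in the DCL libraries and 3.90, 8.06 and 8.01 in the control libraries (log2 ratio 1.49). At chr7:106232381-106232720 there were 100.4, 71.7 and 41.5 in the DCL libraries and 37.0, 30.4 and 34.7 in the control libraries (log2 ratio 1.06). Groups did not overlap in either, and in the first of them the first-listed DCL library was the lowest of its group. At chr7:106223381-106223600 there were 47.0, 25.4 and 15.1 in the DCL libraries and 17.5, 11.2 and 12.3 in the control libraries (log2 ratio 1.09), and at chr7:106208601-106208920 122, 49.3 and 38.8 in the DCL libraries and 36.1, 50.2 and 39.5 in the control libraries (log2 ratio 0.74). In these the third DCL library fell among the controls, in the latter the second did too, and without the first the log2 ratios were 0.57 and 0.071. At chr7:106145861-106146220 there were 53.3, 26.9 and 19.7 in the DCL libraries and 24.4, 19.2 and 12.3 in the control libraries (log2 ratio 0.84, and 0.32 without the first), also overlapping, with an adjusted p of 0.558 in the authors' deposited table. At chr7:106135561-106135800 there were 40.8, 31.4 and 15.8 in the DCL libraries and 5.85, 9.92 and 12.3 in the control libraries (log2 ratio 1.65, and 1.33 without the first), with the groups apart. At chr7:106112361-106112640, 177 kb in, there were 84.7, 23.9 and 11.8 in the DCL libraries and 17.5, 20.4 and 17.6 in the control libraries (log2 ratio 1.11). The second DCL library was just above the controls and the third below them, and the log2 ratio without the first was -0.054. The lower regions lay beyond. At chr7:106086321-106086520, 203 kb in, there were 3.14, 4.48 and 15.8 in the DCL libraries and 27.3, 25.4 and 24.6 in the control libraries (7.80 ± 6.95 against 25.8 ± 1.39, SD, n = 3, log2 ratio -1.72), and at chr7:106061141-106061360, 228 kb in, 6.27, 13.4 and 7.24 in the DCL libraries and 28.3, 23.6 and 24.6 in the control libraries (8.98 ± 3.89 against 25.5 ± 2.48, SD, n = 3, log2 ratio -1.50). All DCL libraries were below all controls in both.

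**Figure D4:**
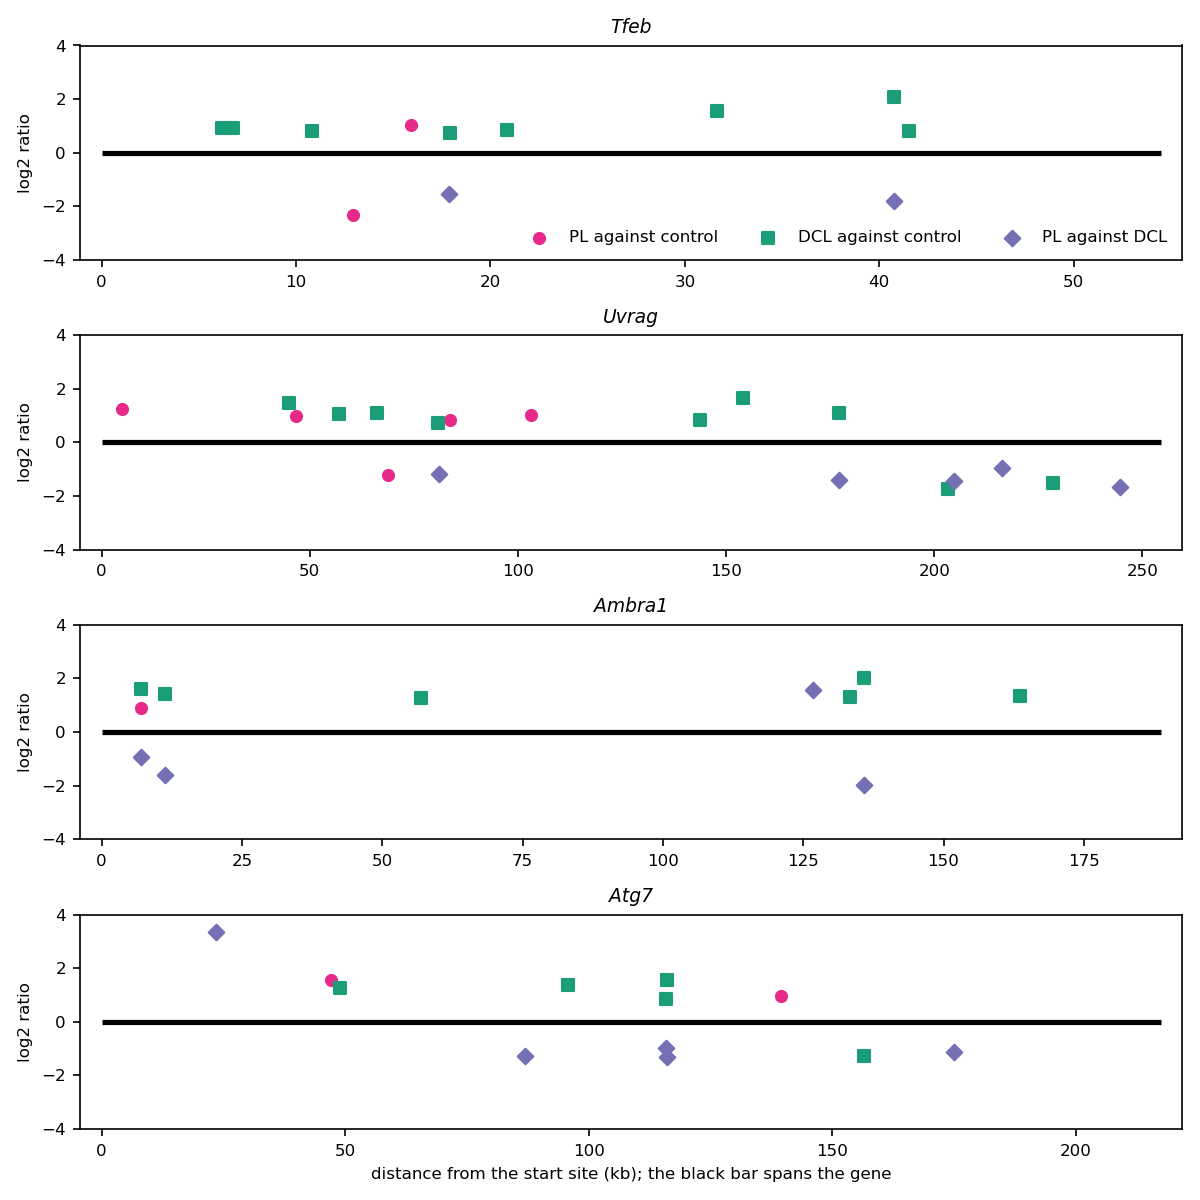
Log2 ratio of the group means at each listed region of Tfeb, Uvrag, Ambra1 and Atg7 against its distance in kb from the start site of the listed transcript, with a marker shape and colour for each comparison and a black bar for the length of the gene; a Tfeb region that the table gives to a shorter transcript is not drawn. In Uvrag the regions higher after DCL lie between 45.0 and 177 kb and the 2 lower ones at 203 and 228 kb, and in Ambra1 the first stretch carries a marker of all 3 comparisons.

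Among the genes of membrane supply, the lipid-transfer proteins Atg2a and Atg2b, which bridge the endoplasmic reticulum and the growing membrane, held 6 higher regions and 1 lower. Upstream of Atg2a, 2.05 kb before the start at chr19:6239481-6239760, there were 81.5, 17.9 and 16.4 in the DCL libraries and 11.7, 9.30 and 11.2 in the control libraries (38.6 ± 37.2 against 10.7 ± 1.27, SD, n = 3, log2 ratio 1.85). At chr19:6244801-6245040, inside the gene, there were 25.1, 29.9 and 12.5 in the DCL libraries and 8.77, 4.34 and 6.41 in the control libraries (22.5 ± 8.97 against 6.51 ± 2.22, SD, n = 3, log2 ratio 1.79). In both every DCL library was above every control, and without the first-listed DCL library the log2 ratios were 0.68 and 1.70. The other 2 regions of Atg2a had log2 ratios of 1.02 and 1.54, and 0.93 and 0.39 without it, so all 4 were higher, across a gene of 20.6 kb. Atg2b was higher in its promoter, 2.23 kb past the start at chr12:106921121-106921320, with 75.3, 25.4 and 8.55 in the DCL libraries and 15.6, 16.1 and 11.2 in the control libraries (log2 ratio 1.35, and 0.25 without the first). The third DCL library was below all controls there. Deep in Atg2b, at chr12:106874721-106875180, it was lower, with 9.41, 13.4 and 11.2 in the DCL libraries and 39.0, 43.4 and 35.8 in the control libraries (11.3 ± 2.02 against 39.4 ± 3.81, SD, n = 3, log2 ratio -1.80). All DCL values lay far below all control values, and the adjusted p of 2.27e-05 was the smallest of the 72 regions in the authors' deposited table. Wipi1, which binds the phosphoinositide that the lipid kinase makes, had 2 higher regions and 1 lower. The higher one at chr11:109458121-109458320 had a log2 ratio of 1.18 with the groups apart. The other, at chr11:109462541-109462780, had 59.6, 10.4 and 14.5 in the DCL libraries and 15.6, 12.4 and 13.9 in the control libraries (log2 ratio 1.01), so that the first DCL library alone was high, and without it the log2 ratio was -0.16. The lower region had a log2 ratio of -1.22.

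The conjugation genes held 16 regions, 12 higher and 4 lower. Atg12, the ubiquitin-like protein of the first system, was higher at chr18:46899241-46899700, 1.76 kb past the start, with 166, 28.4 and 36.2 in the DCL libraries and 39.0, 33.5 and 21.9 in the control libraries (log2 ratio 1.29). The second DCL library and the third lay among the controls, and without the first the log2 ratio was 0.037. Atg16l1, which brings the Atg12 conjugate to the membrane, was lower just upstream, 0.786 kb before the start at chr1:89651681-89651920, with 6.27, 1.49 and 3.29 in the DCL libraries and 14.6, 11.8 and 13.4 in the control libraries (3.68 ± 2.41 against 13.3 ± 1.42, SD, n = 3, log2 ratio -1.85). All DCL libraries were below all controls at this promoter, on 8 reads against 59. Atg5 was higher at chr10:44035461-44035740, with 107, 76.2 and 23.0 in the DCL libraries and 28.3, 31.0 and 32.6 in the control libraries (log2 ratio 1.16, and 0.70 without the first), the third DCL library being below the controls. It was higher again at chr10:44057121-44057340, with 59.6, 13.4 and 15.1 in the DCL libraries and 11.7, 11.8 and 9.62 in the control libraries (log2 ratio 1.41, and 0.37 without the first). Here the groups stood apart, as they did in the third higher region of Atg5 (log2 ratio 1.07) and in a lower region near its end (log2 ratio -1.12).

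Atg7 held 2 regions with 100 bp between them. At chr6:114708781-114709060 there were 69.0, 58.2 and 50.7 in the DCL libraries and 28.3, 35.3 and 35.3 in the control libraries (59.3 ± 9.21 against 33.0 ± 4.06, SD, n = 3, log2 ratio 0.85). At chr6:114709161-114709360 there were 87.8, 17.9 and 9.21 in the DCL libraries and 12.7, 11.2 and 15.0 in the control libraries (38.3 ± 43.1 against 12.9 ± 1.91, SD, n = 3, log2 ratio 1.57). In the first all DCL libraries were high, and the log2 ratio without the first-listed library was 0.72; in the second the third DCL library was below the controls, and the log2 ratio without the first was 0.069. The larger of the log2 ratios thus came with the overlapping groups. The rest of Atg7 held 2 higher regions and 1 lower, with log2 ratios of 1.28, 1.36 and -1.27, and of 0.59, 0.81 and -1.47 without the first. Atg10 was higher at chr13:91236801-91237020, 127 kb in, with 72.1, 14.9 and 13.2 in the DCL libraries and 14.6, 8.68 and 3.21 in the control libraries (log2 ratio 1.92, and 0.67 without the first). The third DCL library was below the highest control. Nearer the start, at chr13:91336141-91336340, it was higher with the groups apart, with 43.9, 22.4 and 24.4 in the DCL libraries and 13.7, 14.2 and 10.7 in the control libraries (log2 ratio 1.23, and 0.86 without the first). Its other 2 higher regions had log2 ratios of 1.26 and 1.20, which were 0.43 and -0.88 without the first, and a lower one had -2.26.

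The ATG8 family and its proteases held 6 regions in 4 genes, all higher. Atg4b, the main protease that primes ATG8 proteins, had the highest log2 ratio of the 72 regions, 2.42, at chr1:95663941-95664200, where there were 104, 19.4 and 11.8 in the DCL libraries and 9.75, 7.44 and 8.01 in the control libraries (44.9 ± 50.9 against 8.40 ± 1.20, SD, n = 3). Although the groups were apart, the first-listed DCL library was far above the others; without it the log2 ratio was 0.90. After a gap of 2.16 kb, at chr1:95666361-95666620, there were 113, 32.9 and 14.5 in the DCL libraries and 19.5, 14.9 and 19.8 in the control libraries (log2 ratio 1.57, and 0.39 without the first). The third DCL library was below all controls. Atg4c, a related protease, had 62.7, 23.9 and 13.2 in the DCL libraries and 16.6, 11.8 and 15.0 in the control libraries at chr4:98878121-98878380 (log2 ratio 1.20, and 0.36 without the first). Its region at chr4:98903181-98903540 had 147, 91.1 and 54.0 in the DCL libraries and 74.1, 60.7 and 60.4 in the control libraries (log2 ratio 0.58, and 0.16 without the first). In both the groups overlapped through the third DCL library. Gabarapl2, an ATG8 protein that acts in autophagosome maturation, had 59.6, 34.3 and 17.8 in the DCL libraries and 17.5, 19.8 and 19.8 in the control libraries at chr8:114467601-114467880 (log2 ratio 0.97, and 0.45 without the first). The third DCL library was again among the controls. Map1lc3b, the LC3 protein most used to mark autophagosomes, had 97.2, 59.7 and 43.4 in the DCL libraries and 26.3, 37.8 and 39.0 in the control libraries at chr8:124119801-124120140 (66.8 ± 27.6 against 34.4 ± 7.00, SD, n = 3, log2 ratio 0.96, and 0.59 without the first). All DCL libraries were above all controls there. Map1lc3a and Gabarapl1 held no region.

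Tfeb held 8 regions, all higher, spread from 6.21 to 41.5 kb past its start. At chr17:47915521-47915720 there were 62.7, 16.4 and 15.1 in the DCL libraries and 3.90, 11.2 and 7.48 in the control libraries (31.4 ± 27.1 against 7.51 ± 3.63, SD, n = 3, log2 ratio 2.06, and 1.07 without the first-listed DCL library). At chr17:47892621-47893000 there were 91.0, 47.8 and 39.5 in the DCL libraries and 40.0, 33.5 and 34.2 in the control libraries (log2 ratio 0.73, and 0.28 without it). The groups were apart in the former and overlapped slightly in the latter. The other 6 regions had log2 ratios from 0.82 to 1.57, and 5 of them had the groups apart. The sixth, at chr17:47916221-47916600, went to 0.19 without that library. In 3 that lie near the start the first-listed DCL library was not far above the rest. At chr17:47880981-47881200 there were 34.5, 58.2 and 25.0 in the DCL libraries and 21.4, 24.8 and 16.6 in the control libraries, at chr17:47881521-47881780 40.8, 56.7 and 44.7 in the DCL libraries and 27.3, 24.2 and 23.0 in the control libraries, and at chr17:47885561-47885800 25.1, 22.4 and 28.3 in the DCL libraries and 17.5, 13.0 and 12.3 in the control libraries. Without the first-listed library the log2 ratios of these 3 were 0.99, 1.03 and 0.83, against 0.91, 0.93 and 0.82 with it. Tfeb was thus higher after DCL at 6 regions with the groups apart. The lower region that Tfeb held after the sciatic lesion did not overlap any of these.

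Over all roles, the 24 higher regions outside the naming rule for library values had log2 ratios from 0.82 to 1.57, with 14 apart and 10 overlapping, and the 5 lower ones had -2.26 to -1.07, all apart. Along the gene, 21 of the 60 higher regions lay in the first 25% or before the start, and 3 in the last 25%, with a median position 32.4% of the way. Over all higher regions of this table that are given to a gene, 34.8% were in the first 25%, 20.9% in the last 25%, and the median was 40.8%. The 12 lower regions had a median position of 67.3%, with 2 in the first 25% and 4 in the last 25%, against 32.4% and 22.7% of all lower regions and a median of 43.0%. The Atg2a region before the start is among the 21, that of Atg16l1 among the 2, and the Atg13 region past the gene end among the 4. The 7 genes with a region after each lesion were Ambra1, Atg5, Atg7, Atg10, Pik3r4, Tfeb and Uvrag. The share of all genes with a region after each lesion was not counted. Only in Ambra1 did the regions of both lesions overlap, and in the other 6 the nearest regions were 1.58 to 9.20 kb apart.

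In the direct comparison, 5-hmC differed between PL and DCL at 44 regions in 16 of the 32 genes (50%), against 29.5% of all genes. In 39 of them PL was lower than DCL and in 5 it was higher, so that 11.4% were higher, against 24.9% of all regions in this table. A lower region was held by 15 genes (46.9%), against 25.1% of all genes, and a higher one by 5 (15.6%), against 11.3%. Here too the shares of all genes are over genes of every length. Rb1cc1, Atg13, Atg14, Uvrag, Wipi2, Atg10, Atg12, Atg4b, Atg4c, Gabarapl2 and Map1lc3b had only lower regions, Ambra1, Atg5, Atg7 and Tfeb had both, and Wipi1 had only a higher one. The groups were apart in 5 of 5 higher regions, against 98.5% of all higher regions, and in 23 of 39 lower ones (59.0%), against 59%. Leaving out the first-listed DCL library, a 1.5-fold difference remained in 27 of the 39 lower regions (69.2%), against 70.4% of all lower regions, and their median log2 ratio went from -1.54 to -0.87.

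The 5 regions with more 5-hmC after PL than after DCL lay in genes of 4 roles. Atg7 was higher after PL at chr6:114616601-114616800, 23.6 kb in, with 9.92, 11.3 and 9.81 in the PL libraries and 0, 1.11 and 1.95 in the DCL libraries (10.3 ± 0.836 against 1.02 ± 0.978, SD, n = 3). The log2 ratio of 3.34 was the largest in size of the 44, on 35 reads in the PL libraries against 5 in the DCL libraries. Its adjusted p was 0.000492 in the authors' deposited table. Atg5 was higher at chr10:44014081-44014300, with 11.8, 14.4 and 9.81 in the PL libraries and 0, 3.32 and 4.39 in the DCL libraries (12.0 ± 2.30 against 2.57 ± 2.29, SD, n = 3, log2 ratio 2.22). Wipi1 was higher at chr11:109452881-109453080, with 14.2, 15.4 and 18.4 in the PL libraries and 0, 4.43 and 7.31 in the DCL libraries (16.0 ± 2.14 against 3.91 ± 3.68, SD, n = 3, log2 ratio 2.03). In each of these the first-listed DCL library held no read, and a single read in it would have counted for 2.34. Ambra1 was higher at chr2:91696881-91697100, 127 kb in, with 26.0, 26.7 and 22.1 in the PL libraries and 2.34, 9.97 and 13.2 in the DCL libraries (24.9 ± 2.51 against 8.49 ± 5.56, SD, n = 3, log2 ratio 1.55). Tfeb was higher at chr17:47927681-47928020, a region that the table gives to a shorter transcript, with 18.0, 19.5 and 12.3 in the PL libraries and 0, 5.54 and 7.31 in the DCL libraries (16.6 ± 3.83 against 4.28 ± 3.81, SD, n = 3, log2 ratio 1.95), and the first-listed DCL library again held no read. In all 5 the PL libraries stood above the DCL libraries. With the first-listed DCL library left out, the log2 ratios were from 1.11 to 2.76. None of the 5 overlapped a region listed against control.

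Of the 39 regions lower after PL than after DCL, 26 overlapped a region that was higher after DCL than in control, by 180 to 380 bp, in 14 genes. Both comparisons use the same DCL libraries, so their values are given side by side and not as a second finding. The share of all lower regions that overlap in this way was not counted. The 26 of 39 can therefore not be read as particular to autophagy genes. Over these 26 regions the log2 ratio of DCL over control ran from 0.58 to 2.42 and that of DCL over PL from 0.93 to 2.75. In 7 of them the groups were apart in both tables, in 8 in 1 table and in 11 in neither. If that first-listed library is left out, 9 kept a 1.5-fold difference in both tables, 9 in 1 table and 8 in neither, and 4 changed sign in at least 1 table. Neither set of counts was made over the overlapping regions of all genes, so they describe these 26 alone.

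**Figure D5:**
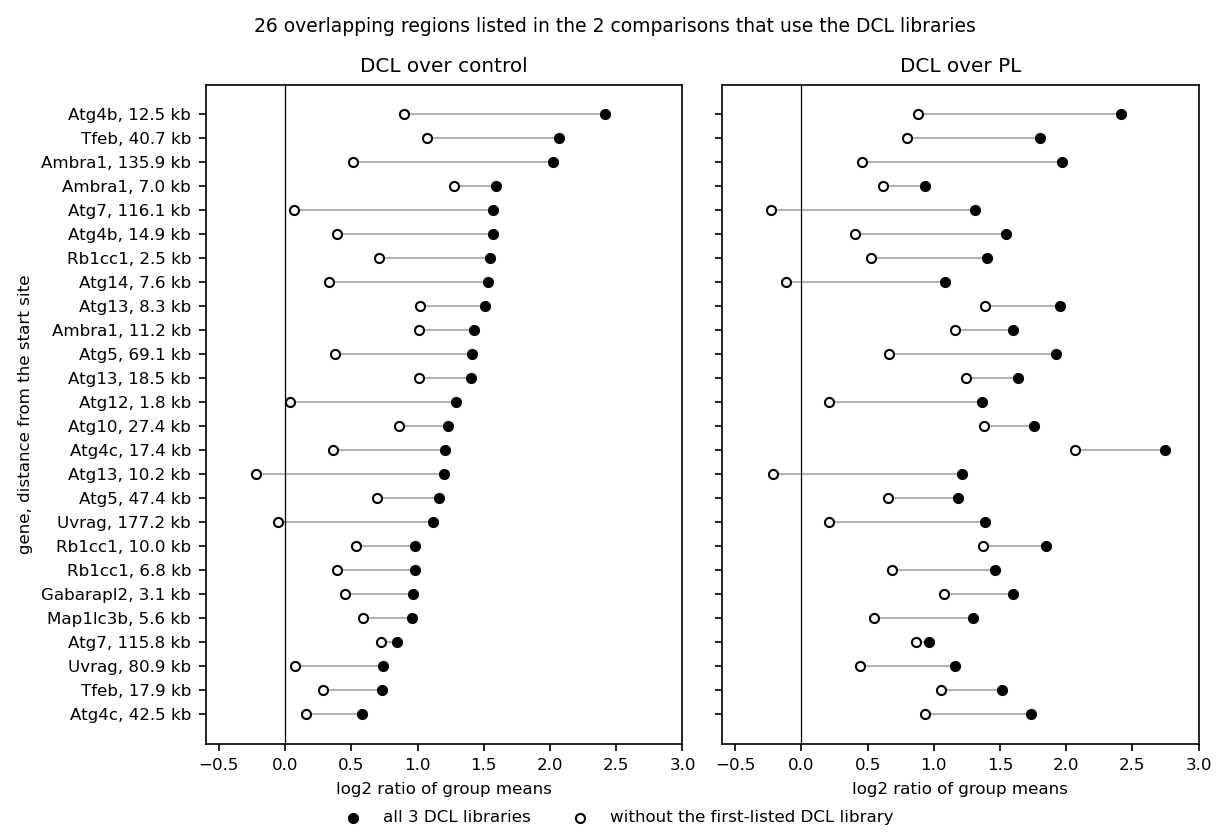
Log2 ratio of the group means at the 26 overlapping regions that are higher after DCL than in control (left) and than in PL (right), with all 3 DCL libraries (filled) and without the first-listed DCL library (open); each row is a region, named by its gene and its distance from the start site. The filled points all lie right of 0, while the open points lie nearer to 0 in every row, and 4 rows have an open point left of 0 in at least 1 panel.

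In the initiation kinase complex, Atg13 held 5 regions and Rb1cc1 3, all lower after PL. In Atg13 the region at chr2:91542321-91542540 had 4.96, 2.06 and 6.13 in the PL libraries and 28.1, 12.2 and 10.7 in the DCL libraries (log2 ratio -1.96), and that at chr2:91532081-91532320 had 5.58, 7.20 and 8.59 in the PL libraries and 32.8, 24.4 and 9.27 in the DCL libraries (log2 ratio -1.64). The groups were apart in both, and without the first-listed DCL library the log2 ratios were -1.39 and -1.24. Between them, chr2:91540341-91540720 had 26.6, 20.6 and 29.4 in the PL libraries and 133, 21.1 and 22.9 in the DCL libraries (log2 ratio -1.21). Here PL lay at the level of the second DCL library and the third, and the log2 ratio without the first was 0.22. The remaining Atg13 regions overlapped none listed against control. At chr2:91530421-91530680 there were 5.58, 5.14 and 11.0 in the PL libraries and 18.7, 43.2 and 12.7 in the DCL libraries (7.25 ± 3.29 against 24.9 ± 16.2, SD, n = 3, log2 ratio -1.78), the second DCL library being the highest. At chr2:91514881-91515080 there were 18.0, 13.4 and 17.2 in the PL libraries and 32.8, 32.1 and 30.7 in the DCL libraries (16.2 ± 2.46 against 31.9 ± 1.05, SD, n = 3, log2 ratio -0.98), with the DCL libraries close together. Rb1cc1 had 13.0, 19.5 and 24.5 in the PL libraries and 96.0, 46.5 and 8.29 in the DCL libraries in its promoter at chr1:6207001-6207360 (log2 ratio -1.40), where the third DCL library was below all PL libraries. It had 17.4, 14.4 and 7.36 in the PL libraries and 65.5, 16.6 and 25.4 in the DCL libraries at chr1:6211381-6211580 (log2 ratio -1.46), overlapping slightly. At chr1:6214541-6214900 it had 7.44, 4.11 and 12.3 in the PL libraries and 44.5, 25.5 and 15.6 in the DCL libraries (log2 ratio -1.84), with the groups apart. For Rb1cc1 the log2 ratios without the first were -0.53, -0.69 and -1.37.

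In the lipid kinase complex, the Ambra1 stretch listed in all 3 tables had 31.0, 36.0 and 28.2 in the PL libraries and 84.3, 78.7 and 18.5 in the DCL libraries at chr2:91577121-91577460 (log2 ratio -0.93). PL thus lay below the first and second DCL libraries and above the third, while in its own table it lay above all controls. Further along, chr2:91581321-91581700 had 10.5, 16.4 and 17.2 in the PL libraries and 67.9, 43.2 and 22.4 in the DCL libraries (log2 ratio -1.60), with the groups apart, and chr2:91706001-91706340 had 9.30, 13.4 and 14.7 in the PL libraries and 112, 21.1 and 13.2 in the DCL libraries (log2 ratio -1.97), with the third DCL library among the PL libraries. Leaving out the first DCL library, the 3 log2 ratios were -0.61, -1.16 and -0.46. Atg14 had 16.7, 18.5 and 20.9 in the PL libraries and 84.3, 18.8 and 15.6 in the DCL libraries at chr14:48180341-48180620 (log2 ratio -1.08). Only the first DCL library was clearly above PL, and the log2 ratio without it was 0.12. Uvrag held 5 lower regions. At chr7:106208581-106208860 there were 18.0, 21.6 and 30.7 in the PL libraries and 93.7, 33.2 and 30.2 in the DCL libraries (log2 ratio -1.16, and -0.44 without the first), and at chr7:106112361-106112580 9.30, 16.4 and 8.59 in the PL libraries and 63.2, 17.7 and 8.78 in the DCL libraries (log2 ratio -1.39, and -0.21 without the first). The groups overlapped in both. The other 3 lay further from the start, with the groups apart. At chr7:106084941-106085140 there were 5.58, 10.3 and 8.59 in the PL libraries and 42.1, 12.2 and 11.7 in the DCL libraries (log2 ratio -1.43), at chr7:106073181-106073480 12.4, 21.6 and 14.7 in the PL libraries and 28.1, 32.1 and 33.2 in the DCL libraries (log2 ratio -0.94), and at chr7:106044921-106045120 8.68, 4.11 and 4.91 in the PL libraries and 21.1, 16.6 and 17.6 in the DCL libraries (log2 ratio -1.64). In the last of these the 3 DCL libraries were near each other, and without the first the log2 ratio was -1.53.

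Among the conjugation genes, Atg12 had 14.2, 20.6 and 20.9 in the PL libraries and 101, 16.6 and 26.3 in the DCL libraries in its promoter at chr18:46899321-46899680 (log2 ratio -1.37, and -0.21 without the first-listed DCL library). The second DCL library fell among the PL libraries. Atg5 had 22.3, 21.6 and 17.2 in the PL libraries and 74.9, 49.9 and 14.1 in the DCL libraries at chr10:44035461-44035720 (log2 ratio -1.19, and -0.65 without the first), where the third DCL library was below PL. It had 6.20, 5.14 and 4.91 in the PL libraries and 44.5, 8.86 and 8.29 in the DCL libraries at chr10:44057121-44057320 (log2 ratio -1.92, and -0.66 without the first), where the groups were apart. Atg10 had 8.68, 5.14 and 6.13 in the PL libraries and 32.8, 16.6 and 18.0 in the DCL libraries at chr13:91336141-91336340 (log2 ratio -1.76, and -1.38 without the first), also apart. Atg7 held 4 lower regions besides its higher one. At chr6:114679881-114680160 there were 12.4, 13.4 and 15.9 in the PL libraries and 51.5, 19.9 and 28.3 in the DCL libraries (log2 ratio -1.26, and -0.79 without the first), and at chr6:114768001-114768240 29.1, 23.6 and 17.2 in the PL libraries and 101, 31.0 and 22.4 in the DCL libraries (log2 ratio -1.14, and -0.20 without the first). The groups were apart in the former and overlapped in the latter. The adjoining stretches described above differed again. At chr6:114708801-114709080 there were 20.4, 29.8 and 19.6 in the PL libraries and 51.5, 46.5 and 38.5 in the DCL libraries (log2 ratio -0.97, and -0.87 without the first), with all DCL libraries above PL. At chr6:114709141-114709340 there were 10.5, 10.3 and 13.5 in the PL libraries and 65.5, 12.2 and 7.31 in the DCL libraries (log2 ratio -1.31, and 0.23 without the first), with the third DCL library below PL.

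The ATG8 family and its proteases held 9 regions in 4 genes, all lower after PL. Atg4c had the lowest log2 ratio of the 44, -2.75, at chr4:98878121-98878420, with 5.58, 5.14 and 1.23 in the PL libraries and 46.8, 22.2 and 11.2 in the DCL libraries (3.98 ± 2.39 against 26.7 ± 18.2, SD, n = 3). Its groups were apart, and the log2 ratio was -2.07 without the first-listed DCL library. Its region at chr4:98903181-98903380 had 14.9, 10.3 and 17.2 in the PL libraries and 86.6, 34.3 and 19.5 in the DCL libraries (log2 ratio -1.73, and -0.93 without the first), also apart. Atg4b had 2.48, 10.3 and 6.13 in the PL libraries and 77.3, 14.4 and 8.78 in the DCL libraries at chr1:95663941-95664200 (log2 ratio -2.41, and -0.88 without the first) and 16.1, 14.4 and 11.0 in the PL libraries and 84.3, 25.5 and 11.2 in the DCL libraries at chr1:95666341-95666620 (log2 ratio -1.54, and -0.41 without the first). In both, the third DCL library fell among the PL libraries. Gabarapl2 had 6.82, 7.20 and 13.5 in the PL libraries and 44.5, 25.5 and 13.2 in the DCL libraries at chr8:114467581-114467880 (log2 ratio -1.60, and -1.08 without the first), overlapping, and Map1lc3b had 10.5, 18.5 and 13.5 in the PL libraries and 63.2, 19.9 and 21.5 in the DCL libraries at chr8:124119841-124120040 (log2 ratio -1.30, and -0.55 without the first), apart. The remaining 3 regions, in Atg4b, Atg4c and Gabarapl2, had log2 ratios from -2.07 to -1.57, and of -1.48, -1.14 and -2.08 in that order without the first, with the groups apart. The one in Gabarapl2 lay 506 bp past the listed end of the gene. Tfeb was lower at chr17:47892621-47892860, with 6.20, 12.3 and 14.7 in the PL libraries and 49.2, 26.6 and 19.5 in the DCL libraries (log2 ratio -1.52, and -1.06 without the first), and at chr17:47915521-47915720, with 8.06, 7.20 and 4.91 in the PL libraries and 46.8, 12.2 and 11.2 in the DCL libraries (log2 ratio -1.80, and -0.80 without the first). Both had the groups apart. The last 3 lower regions, in Atg10, Atg14 and Wipi2, had log2 ratios of -2.29, -1.38 and -2.03, and of -2.29, -0.63 and -2.14 without the first.

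Genes around the core pathway gave the following counts, which were not compared with genes of like length. Over all genes, 19.5% held a region in PL against control, 36.8% in DCL against control and 29.5% in PL against DCL. Of 20 other core autophagy genes, 8 (40%), 17 (85%) and 15 (75%) held one. Tmem41b, a lipid scramblase of the endoplasmic reticulum needed for autophagosome formation, reached 24.8 ± 6.32 in PL libraries and 10.0 ± 2.99 in controls (SD, n = 3, log2 ratio 1.31) at its region of smallest adjusted p. After DCL it had 28.8 ± 15.9 against 5.12 ± 1.07 (SD, n = 3, log2 ratio 2.49), with the groups apart in both tables. In PL against DCL its only region was lower, with 15.6 ± 1.02 in PL libraries and 39.7 ± 20.5 in DCL libraries (SD, n = 3, log2 ratio -1.34), also apart. Ratios without the first-listed DCL library are not given for the genes of this paragraph. Of 22 regulators in the mTOR and AMPK branches, 8 (36.4%), 16 (72.7%) and 11 (50%) held a region. After PL, 4 of the 8 had only higher regions, 1 had only lower ones and 3 had both. Mtor itself, the kinase that holds autophagy back, reached 19.4 ± 3.09 in PL libraries and 7.24 ± 0.846 in controls (SD, n = 3, log2 ratio 1.43), at its only region in that comparison. After DCL it held 5 higher regions and 2 lower, and that of smallest adjusted p had 29.5 ± 15.5 against 10.2 ± 4.01 (SD, n = 3, log2 ratio 1.54), with the groups overlapping. In PL against DCL its 2 regions were lower, with a log2 ratio of -1.22 at that of smallest adjusted p. Of 15 genes of fusion with the lysosome, 3 (20%), 10 (66.7%) and 9 (60%) held a region, and of 22 receptors and mitophagy genes, 8 (36.4%), 13 (59.1%) and 11 (50%). Of 28 lysosome genes and relatives of Tfeb, 5 (17.9%), 17 (60.7%) and 14 (50%) held a region. Mitf, a relative of Tfeb, had 2 regions after PL, 1 in each direction, and 7 after DCL, 4 higher and 3 lower.

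Regions in marker genes of the cells in the ganglion were counted in the same way. Of 18 markers of sensory neurons, 5 (27.8%), 7 (38.9%) and 6 (33.3%) held a region in PL against control, DCL against control and PL against DCL, against the shares of all genes given above. Of 16 markers of satellite glia and Schwann cells, 4 (25%), 10 (62.5%) and 5 (31.2%) did. Of 12 immune markers 0, 2 (16.7%) and 1 (8.33%) did, and of 12 vascular and fibroblast markers 4 (33.3%), 6 (50%) and 4 (33.3%). In DCL against control, higher and lower regions numbered 18 and 4 for the neuron markers, 10 and 5 for the glia markers, 1 and 1 for the immune markers and 16 and 3 for the vascular and fibroblast markers, while 82.9% of all regions in that table were higher. Their part in the autophagy counts was not tested.

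The members were also compared with genes of like length. With all 21900 genes parted by length into 3 classes of equal size, 18 members fell in the class of longest genes, 12 in the middle class and 2 in that of the shortest. In PL against control, 7 of the 18, 1 of the 12 and 0 of the 2 held a region, against 42.3%, 12.9% and 3.23% of all genes of those classes. In DCL against control, 15 of the 18, 5 of the 12 and 1 of the 2 did, against 65.9%, 33.8% and 10.7%. In PL against DCL, 12 of the 18, 3 of the 12 and 1 of the 2 did, against 57.5%, 24.1% and 7.04%. Higher and lower regions were not counted apart in these classes. The part of gene length in the counts was not tested.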

How the data were processed

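Genomic DNA of pooled ganglia was enriched for 5-hmC by linking a sugar and then biotin to it, and sequenced. MACS2 2.1.1, SAMtools 0.1.19 and Bowtie2 2.2.0 appear in the submitters' processing notes, as does the build, mm9, without a stated use. Neither the caller of the regions nor the test is named in a source used here. Per the file headers, the authors deposited 3 tables of differing regions, with normalised read counts of each library, their average signal, a ratio of enrichment, a log2 fold change, and p-values raw and adjusted. Low values were whole multiples of a step in each library, within a tolerance of 0.1 of a step, which gives the value of a read.

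Regions were matched to genes by the tables' gene names. The direction, the mean ± SD over 3 libraries, the log2 ratio of the means without a pseudocount, whether the groups stood apart (the lowest value of a group above the highest of the other) and the ratio without each library were computed with Python 3.11.15, pandas 2.3.3 and numpy 2.4.6. No count model was fitted, because the tables hold only selected regions. The computations were tested on simulated data.

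The members, roles and gene lists were chosen with earlier results of these data known. Library values were printed for the 4 regions of smallest deposited adjusted p in each direction and comparison, for promoter regions, for regions overlapping by at least 1 bp between tables, for the region of smallest adjusted p in 12 central genes (Ulk1, Ulk2, Becn1, Pik3c3, Atg5, Atg7, Atg9a, Map1lc3a, Map1lc3b, Sqstm1, Optn and Tfeb) and for the members with most regions. The second regions of Atg7 and Pik3r4 after PL, the Tfeb regions near its start and a Wipi1 region after DCL, and the higher Tfeb region in PL against DCL were added after their values were seen. Tmem41b, Mtor and Mitf were also named after their values were seen.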

Additional observations from a re-analysis of the deposited data

How the results depend on the processing

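No paired analysis was possible because the count columns carry no replicate numbers. Keeping only regions with a deposited adjusted p under 0.01 left 3 higher and 2 lower regions in 4 genes after PL, in place of 10, 5 and 8. No share of all regions or genes at that cut stands beside these counts. Of the 60 regions higher after DCL, 29 had groups that did not overlap, 12 kept a 1.5-fold difference after libraries were rescaled to their median, and 29 to 60 kept it when a library was left out. Of the 39 lower in PL against DCL, 23 did not overlap and 20 kept that difference when rescaled. The 12 and the 20 have no share over all regions beside them. The medians used are over regions already selected as differing, and 82.9% of those in DCL against control were higher. Rescaling therefore also takes out a difference shared by most listed regions, and the fall to 12 cannot be parted from that. The rescaling moved the median log2 ratio of all regions by 0.12 in PL against control, -0.91 in DCL against control and 0.85 in PL against DCL, and left 10 and 5, 51 and 21, and 5 and 39 autophagy regions above and below 0. It reversed 9 regions of DCL against control, in Tfeb (-0.11 and -0.15), Atg4c (-0.27), Atg10 (-0.18), Atg13 (-0.095), Wipi1 (-0.085) and Uvrag (-0.034, -0.032 and -0.20). With medians in place of means, 4 regions reversed, in Atg13 (-0.087), Rb1cc1 (-0.14) and Atg10 (-0.29) after DCL and in Atg13 in PL against DCL (0.22). Leaving out 1 library at a time, 8 of the 131 regions changed sign, each without the first-listed DCL library. After DCL their log2 ratios ran from -0.22 to 1.60 in Atg13, -0.054 to 1.55 in Uvrag, -0.15 to 1.74 in Rb1cc1, -0.88 to 1.70 in Atg10 and -0.16 to 1.41 in Wipi1. In PL against DCL they ran from -1.46 to 0.12 in Atg14, -1.61 to 0.22 in Atg13 and -1.77 to 0.23 in Atg7. The counts of regions that reversed or changed sign have no share over all regions beside them, and the cause was not tested. Adding 1 to both means reversed none of the 131 regions. The number of reads is small at many regions, and that limits all ratios.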
